A study of Mus musculus with 2 samples.

Results

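Imprinted genes were followed across 2 RNA-seq libraries of CGR8 cells, a mouse embryonic stem cell line. The set holds 38 genes known to be imprinted in the mouse, chosen by symbol, of 22421 genes in the deposited tables. All 38 were listed, and 27 had a mean of at least 1 RPKM (reads scaled to transcript length and library depth), the level used below as a floor. Of the 22421 genes, 11802 reached it. Each gene is given by its listed transcript with the highest summed RPKM. One library came from cells transfected with a negative control siRNA and the other from cells transfected with an siRNA against Set1a, each siRNA being given 2 times over 72 hours. Both cultures were kept on gelatin with no feeder cells, in serum-containing medium with leukaemia inhibitory factor, and the labels give no genotype. With 1 library per group there was no replicate check and no p-value, and every difference below is between these 2 libraries.

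An imprinted gene is expressed mainly from the copy inherited from 1 parent. Most imprinted genes lie in domains where a stretch of DNA, methylated on the maternal or the paternal chromosome in the germ line, sets which copy is active. In several domains the active copy of a long noncoding RNA silences its neighbours in cis. Many of the genes control growth of the embryo and placenta, and imprints are known to be unstable in cultured embryonic stem cells. The parental assignments below are textbook ones. Some members, among them Copg2, Ube3a, Gab1 and several genes of the Kcnq1 domain, are known to be imprinted in some tissues only. The tables hold no allele information, so each value sums all copies of a gene. Which copy was expressed in these cells was not measured. In bulk RNA, more expressing cells and more RNA per cell cannot be told apart.

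Setd1a, the gene of the SET1A histone H3 lysine 4 methyltransferase, was at 14.2 RPKM with control siRNA and 11.97 RPKM with Set1a siRNA. The ratio was 0.846, and its exact (Clopper-Pearson) 95% counting interval ran from 0.746 to 0.959 on 559 and 456 reads. Ranges after a ratio are this interval. The difference has the direction of the labels and is small. Of the genes above the floor, 1781 (15.1%) had a lower log2 fold of RPKM + 1 than the -0.22 of Setd1a. Depths were about 6656000 and 6421000 reads. The intervals cover counting error only, and variation between cultures is not in them. Over all genes above the floor the median log2 fold of RPKM + 1 was 0.0063.

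The promoters of 4 imprinted genes are shown first. These genes had the highest and the lowest folds among members above the floor with a promoter in the RefSeq table. Of the 38 members 33 had one, and Peg10, whose log2 fold of 1.25 exceeded the 0.56 of Gnas, had none. The promoter of Kcnq1ot1 was added after its values were seen, because it drives the noncoding RNA of the domain with the most members. Each window runs from 250 bases before to 50 bases after an annotated start, 5′ to 3′ on the strand of the gene, in GRCm38.p6 (the submitters list mm9, and no position was converted). Capitals mark each CpG, the dinucleotide that carries DNA methylation. The windows are chr6:30737800-30738099 (plus strand) for Mest, chr2:174327499-174327798 (plus strand) for Gnas, chr11:12027922-12028221 (minus strand) for Grb10, chrX:73191929-73192228 (plus strand) for Xlr3b and chr7:143296498-143296797 (minus strand) for Kcnq1ot1. Other starts of Mest, Gnas and Grb10 are annotated. The window whose sequence ran into the listed transcript was taken for these genes and for Kcnq1ot1. Other listed transcripts of Gnas and Grb10 had similar read numbers, so the folds of Gnas and Grb10 cannot be assigned to the starts shown. The single Xlr3b window did not match the start of the listed transcript.
Mest: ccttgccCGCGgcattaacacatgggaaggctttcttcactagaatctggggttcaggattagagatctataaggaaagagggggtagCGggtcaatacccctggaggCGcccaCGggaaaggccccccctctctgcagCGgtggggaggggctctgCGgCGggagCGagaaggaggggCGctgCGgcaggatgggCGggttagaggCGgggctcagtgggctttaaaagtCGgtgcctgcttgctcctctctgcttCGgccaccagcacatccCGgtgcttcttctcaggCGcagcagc
Gnas: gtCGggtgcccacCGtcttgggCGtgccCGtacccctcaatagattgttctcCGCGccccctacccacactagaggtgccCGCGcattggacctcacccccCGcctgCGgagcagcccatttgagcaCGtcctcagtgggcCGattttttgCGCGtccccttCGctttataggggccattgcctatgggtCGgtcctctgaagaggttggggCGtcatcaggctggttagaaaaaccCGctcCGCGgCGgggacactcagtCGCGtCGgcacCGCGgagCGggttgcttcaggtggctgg
Grb10: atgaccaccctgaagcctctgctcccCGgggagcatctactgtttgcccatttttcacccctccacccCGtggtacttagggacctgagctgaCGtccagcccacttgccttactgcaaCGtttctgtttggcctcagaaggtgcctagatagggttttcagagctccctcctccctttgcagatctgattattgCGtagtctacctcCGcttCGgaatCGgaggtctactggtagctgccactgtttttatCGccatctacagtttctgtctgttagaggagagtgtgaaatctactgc
Xlr3b: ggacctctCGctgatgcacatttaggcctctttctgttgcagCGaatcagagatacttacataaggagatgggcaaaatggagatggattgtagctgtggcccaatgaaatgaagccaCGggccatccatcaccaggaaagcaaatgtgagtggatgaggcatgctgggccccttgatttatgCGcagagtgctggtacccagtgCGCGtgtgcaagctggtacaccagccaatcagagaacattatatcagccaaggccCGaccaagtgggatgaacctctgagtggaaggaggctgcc
Kcnq1ot1: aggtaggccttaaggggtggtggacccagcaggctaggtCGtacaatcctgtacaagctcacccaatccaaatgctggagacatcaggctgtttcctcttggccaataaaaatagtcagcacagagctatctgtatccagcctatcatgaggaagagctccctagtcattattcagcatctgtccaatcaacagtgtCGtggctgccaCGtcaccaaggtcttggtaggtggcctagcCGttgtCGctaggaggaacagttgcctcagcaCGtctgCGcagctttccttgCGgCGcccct

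The windows held 17 CpGs for Mest, 27 for Gnas, 9 for Grb10, 7 for Xlr3b and 9 for Kcnq1ot1. The median was 13 over the 33 members with a window and 7 over all 32851 windows. The core of the ZFP57 motif, TGCCGC, was searched on both strands. ZFP57 is a zinc finger protein known to protect methylated imprints. Mest held it at 2 places, both on the opposite strand, starting at positions 9 and 184 counted from 1 at the left end of the window shown. It was found in 6 of the 33 member windows (18.2%), those of Zim1, Mest, Copg2, Meg3, Plagl1 and Nnat, and in 11.6% of all windows. The windows of Igf2r, Airn, Copg2, Rian, Mirg, Dlk1, Osbpl5, Snrpn, Ndn, Magel2, Sfmbt2 and Xlr3b did not match the start of the listed transcript. The member shares and the CpG median therefore do not all describe promoters of the transcripts measured here. The members' windows are richer in CpG, and the motif contains one. The core of the YY1 motif, AANATGGC on either strand, was found in 1 of the 33 (Ube3a, 3.03%) and in 6.05% of all windows. No member window held both motifs.

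Mest and Peg10 stood apart from the other members. Mest, which encodes a protein of the alpha/beta hydrolase fold and is expressed from the paternal copy, was at 2.84 RPKM with control siRNA and 9.68 RPKM with Set1a siRNA. The ratio was 3.41 (2.47 to 4.85) from 48 and 159 reads, and 59 of 11802 genes had a higher log2 fold than its 1.48 (0.91 with a pseudocount of 5). Peg10, a paternally expressed gene of retrotransposon origin that the placenta requires, was at 10.4 and 26.1 RPKM. Its ratio was 2.51 (2.25 to 2.81) from 461 and 1118 reads, and 70 genes (0.593%) had a higher log2 fold than its 1.25. These were the members of the 27 at least 2-fold higher on the log2(RPKM + 1) scale, a rule met by 0.771% of all genes above the floor. No member was at least 2-fold lower, where 0.407% of all genes were. At 1.5-fold the counts were again 2 higher and 0 lower, against 2.77% and 1.75% of all genes. The summed level of 9 markers of 2-cell-like cells was also higher with Set1a siRNA, at 11.8 and 155 RPKM, and its part in the values of Mest, Peg10 and the other members was not tested.

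**Figure D1:**
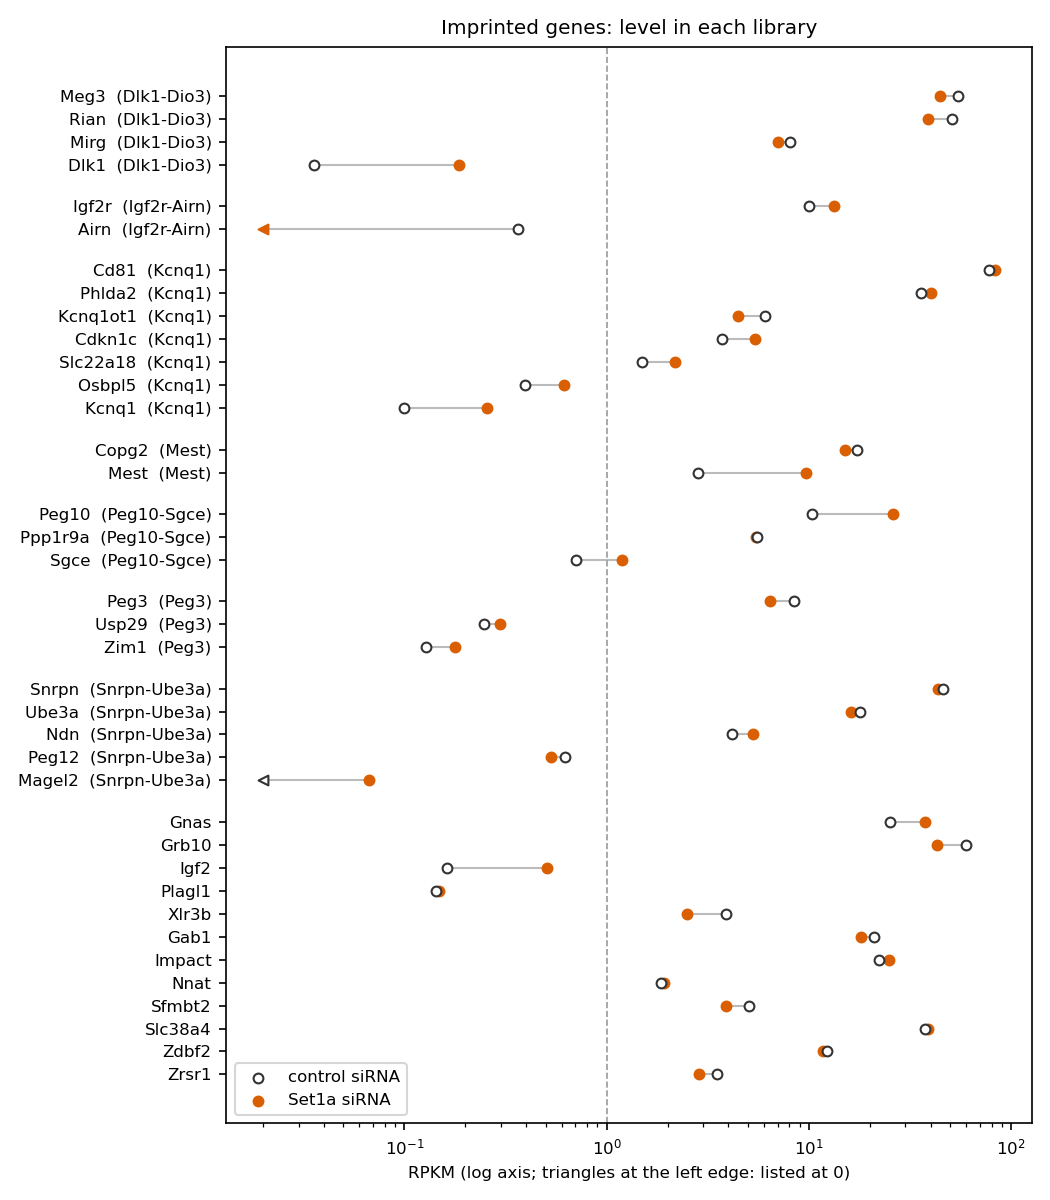
Level of each of the 38 imprinted genes in RPKM (log axis) in the control siRNA library (open circles) and the Set1a siRNA library (filled circles), by domain, with genes that are the only member of their domain at the bottom. The dashed line is the floor of 1 RPKM and triangles mark a value listed at 0; Mest and Peg10 show the widest gaps right of the line.

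Counting intervals gave a finer division of the 26 members above the floor that have one. The interval lay above 1 for 4 of them, Mest, Peg10, Gnas and Igf2r, against 12.2% of all genes above the floor with an interval. It lay below 1 for 6, Grb10, Kcnq1ot1, Peg3, Sfmbt2, Meg3 and Gab1, against 11.3%. For the remaining 16 it included 1. Members were read more deeply than most genes, with a median of 458 control reads against 169. Among genes with control reads between the quartiles of the members, 104 and 658, the shares were 11.5% and 10.9%. The interval excluded 1 for these 10 members on counting error alone, so which of them would differ between other cultures is not known.

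**Figure D2:**
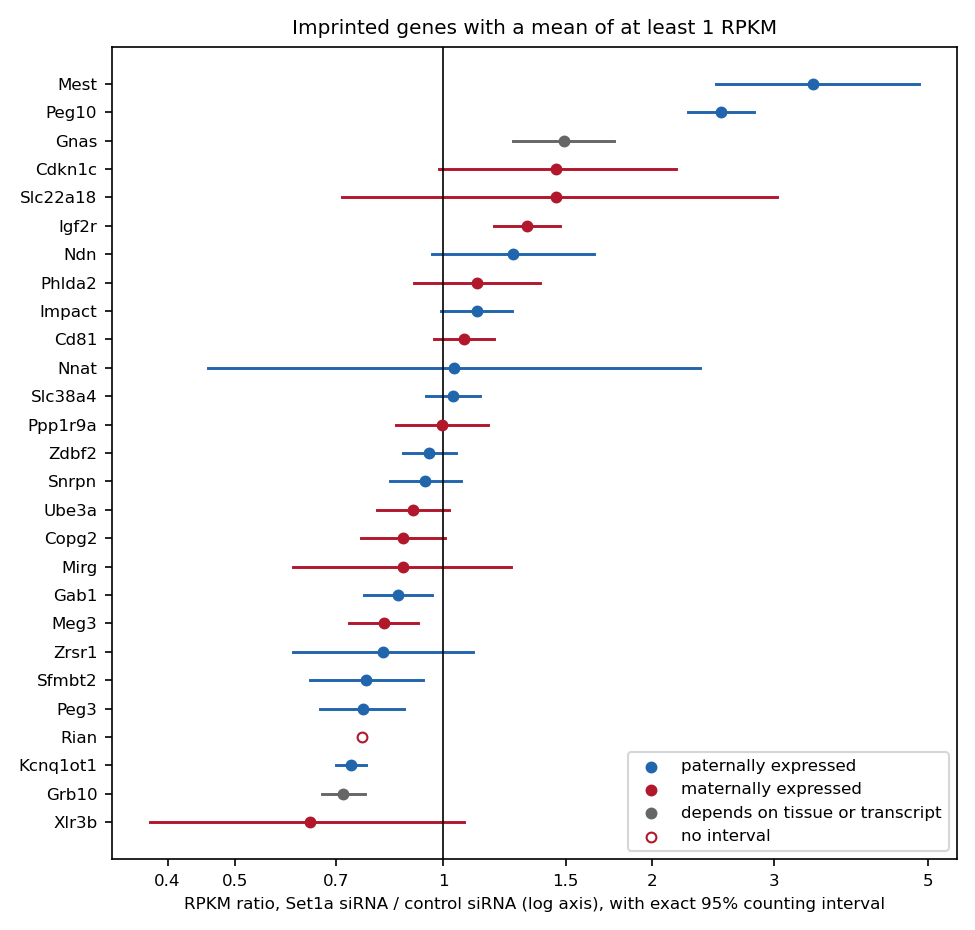
Ratio of RPKM, Set1a siRNA over control siRNA (log axis), for the 27 imprinted genes above the floor, with exact 95% counting intervals as bars. Colours give the expressed parental copy by textbook assignment. Rian has no interval (open circle); Mest and Peg10 lie to the right at 3.41 and 2.51, and the other points lie between 0.642 and 1.49.

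As a group the members were centred near all genes. Of the 27 that reached the floor, 12 had a higher value with Set1a siRNA and 15 a lower one, and of all genes 51.2% were higher. The median log2 fold was -0.06. With no floor it was 0.04, with 21 members higher and 17 lower, so the sign of the median depends on the floor. The median size of the log2 fold, without its sign, was 0.28 for the members and 0.15 for all genes. Paternally and maternally expressed members were not divided by direction. Of 13 paternally expressed members above the floor 6 were higher and 7 lower, with a median of -0.06, and of 12 maternally expressed ones 5 were higher and 7 lower, with a median of -0.07. Grb10 and Gnas were left out of these counts because the expressed copy depends on tissue or transcript.

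**Figure D3:**
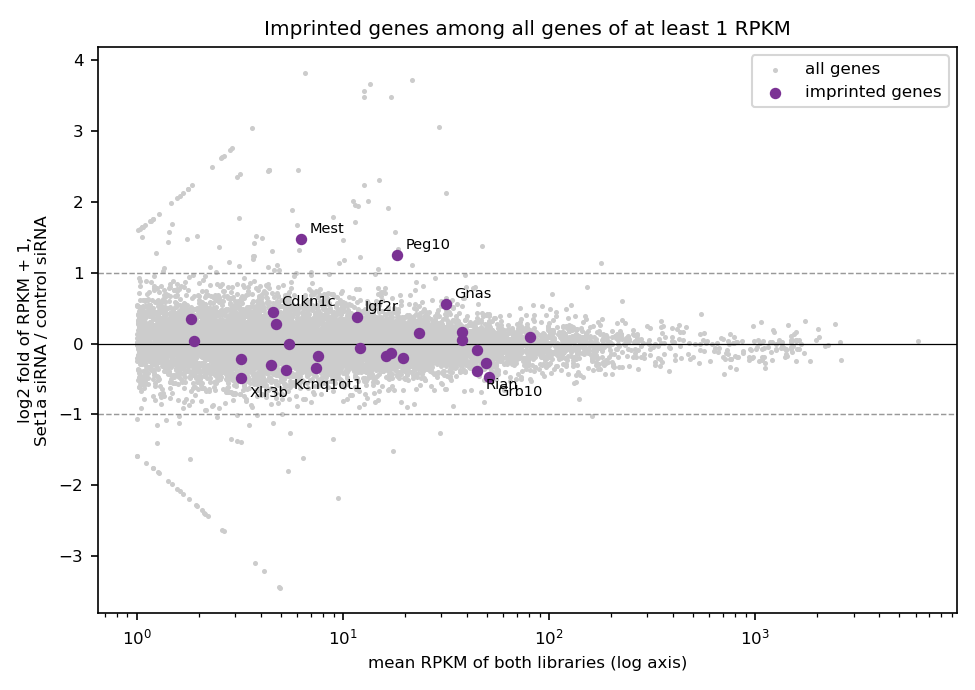
Log2 fold of RPKM + 1 against the mean RPKM of both libraries (log axis) for all 11802 genes above the floor (grey) and the 27 imprinted genes among them (purple). Dashed lines mark 2-fold; Mest at 1.48 and Peg10 at 1.25 lie above the upper line, and no imprinted gene lies below the lower one.

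The Kcnq1 domain holds 7 members, a noncoding RNA and 6 protein-coding genes. Kcnq1ot1, a long unspliced RNA made from the paternal copy that silences the domain in cis, was at 6.08 RPKM with control siRNA and 4.46 RPKM with Set1a siRNA. Its ratio was 0.735 (0.699 to 0.772) from 3764 and 2668 reads, the largest read number of any member. The 6 other members, all expressed from the maternal copy, were each higher in the Set1a siRNA library, and each of their counting intervals included 1. Other protein-coding genes of the domain that are not members lay on both sides of 1. Tssc4 was lower with a ratio of 0.764 (0.602 to 0.967), as was Ascl2 with 0.691 (0.278 to 1.64). Tspan32 was higher with 1.47 (0.661 to 3.37), as was Nap1l4 at the edge of the domain with 1.07 (0.968 to 1.18). Cdkn1c, the gene of the cell cycle inhibitor p57, was at 3.71 and 5.40 RPKM, for a ratio of 1.46 (0.986 to 2.16). Phlda2, known to limit growth of the placenta, was at 35.7 and 39.9 RPKM, for a ratio of 1.12 (0.907 to 1.38). The transporter gene Slc22a18 was at 1.498 and 2.17 RPKM, for a ratio of 1.45 (0.713 to 3.03) from 15 and 21 reads.

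The tetraspanin gene Cd81 had the highest level of all members, 78.0 and 83.5 RPKM, with a ratio of 1.07 (0.970 to 1.18). Osbpl5, which encodes an oxysterol-binding protein relative, was below the floor at 0.396 and 0.616 RPKM. The potassium channel gene Kcnq1 had 2 and 5 reads, a ratio of 2.59 (0.424 to 27.2). The value of Kcnq1ot1 rests on its length and base composition more than that of other members: with a trend in GC content and length removed its log2 fold was -0.03 in place of -0.37. Its transcript has 93092 nucleotides. Of 11670 genes above the floor with a length 1 had a longer transcript and 5 had more than 20000 nucleotides, so the trend rests on few genes at that length. Exons of Kcnq1ot1 and Kcnq1 overlap on opposite strands, and as the treatment of strand is not given in the sources used here, reads of the 2 genes cannot be told apart there.

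In the Dlk1-Dio3 domain the 3 noncoding RNAs of the maternal copy were lower in the Set1a siRNA library. Meg3, at the head of the series, was at 54.5 and 44.7 RPKM, for a ratio of 0.820 (0.731 to 0.918) from 688 and 544 reads. The 3 listed transcripts of Meg3 gave ratios of 0.708 to 0.820. Rian, which hosts many small nucleolar RNAs, was at 50.8 and 38.7 RPKM, for a ratio of 0.763. It has no interval because no length was matched to its transcript. Mirg, the host of a large microRNA cluster, was at 8.10 and 7.07 RPKM, for a ratio of 0.874 (0.607 to 1.25). These RNAs are known to be made in tandem, and they may be parts of longer transcripts, so they are not 3 separate measurements. Dlk1, the protein-coding member of the paternal copy and a membrane protein related to Notch ligands, had 1 and 5 reads, a ratio of 5.18 (0.580 to 245). It was barely detected in either library, while Meg3 and Rian were among the higher members.

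The Igf2r-Airn and H19-Igf2 domains concern the growth factor IGF2. Igf2r, the maternally expressed receptor that clears IGF2, was at 10.05 and 13.3 RPKM, for a ratio of 1.32 (1.18 to 1.47) from 594 and 756 reads. Airn, the paternal noncoding RNA that silences Igf2r in cis in many tissues, had 1 read in the control siRNA library and was listed at 0 in the Set1a siRNA library. Both are at or under the limit of 3 reads used for a count of 0, so no ratio is given. The listed Airn transcripts with a matched length have 521, 856 and 1113 nucleotides, and Airn RNA outside the listed transcripts was not measured. Igf2 itself was below the floor, at 0.163 and 0.506 RPKM, for a ratio of 3.11 (0.942 to 13.2) from 4 and 12 reads. Its listed transcript with the most reads had 4 and 13, for a ratio of 3.37 (1.04 to 14.2). The receptor was thus well measured and the ligand was not.

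The neighbours of Mest and Peg10 among the members are Copg2, Sgce and Ppp1r9a. Copg2, a coatomer gene that lies tail to tail with Mest, was at 17.3 and 15.1 RPKM, for a ratio of 0.875 (0.762 to 1.004) from 455 and 384 reads. Exons of Mest and Copg2 overlap on opposite strands and how strand was treated is not given, so the part of shared reads in either value was not tested. Sgce, the epsilon-sarcoglycan gene that shares a bidirectional promoter region with Peg10, was at 0.709 and 1.19 RPKM, just below the floor on the mean. Its ratio was 1.68 (0.647 to 4.69) from 8 and 13 reads, too few to tell it from 1 or from the ratio of Peg10. Summed over its 5 listed transcripts, which share their reads, Sgce passed the floor and the 1.5-fold rule, which then 3 members met in place of 2. Ppp1r9a, for the actin-binding protein neurabin, was at 5.51 and 5.48 RPKM, for a ratio of 0.995 (0.854 to 1.16).

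Gnas, the gene of the stimulatory G protein alpha subunit, has promoters that are maternally, paternally or biallelically expressed. Its highest listed transcript, a noncoding one (NR_003258), was at 25.2 RPKM with control siRNA and 37.6 RPKM with Set1a siRNA, a ratio of 1.49 (1.26 to 1.76) from 240 and 345 reads. All 9 listed transcripts of Gnas were higher in the Set1a siRNA library, and NM_010309 and NM_201618 among them had identical values. The ratio was between 1.45 and 1.51 for 7 of them, with 240 to 294 control reads each. As these 7 share downstream exons, the same reads enter several of them. The ratio was 2.50 (1.24 to 5.39) for NM_019690, from 12 and 29 reads. For NM_201617, with 0 and 9 reads, it was at least 3.11-fold higher with the control at its limit of 3 reads, a bound in which the error of the 9 reads is not included. Gnas exons overlap those of the antisense RNA Nespas. In all, 14 of the 38 members have exons that overlap another gene on the opposite strand, small RNAs left out.

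**Figure D4:**
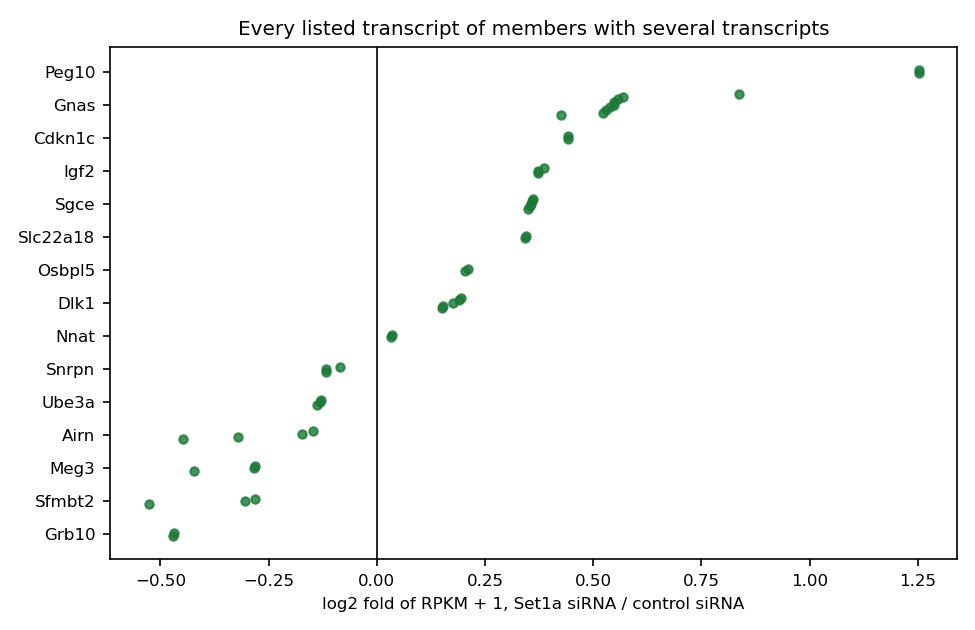
Log2 fold of RPKM + 1 for every listed transcript of the 15 imprinted genes with more than 1 listed transcript; points of 1 gene are spread vertically. For each of the 15 genes all transcripts lie on the same side of 0, with many of their reads shared.

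Grb10, an adaptor protein that restrains insulin and IGF receptor signalling, was at 59.7 and 42.8 RPKM. The ratio was 0.716 (0.667 to 0.769) from 1889 and 1306 reads, and its second listed transcript gave 0.718. Of 11802 genes, 404 (3.42%) had a lower log2 fold than its -0.47. In the control siRNA library Grb10 had the highest level of any member except Cd81. Grb10 is maternally expressed in most tissues and paternally expressed in neurons.

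In the Peg3 domain, Peg3, a paternally expressed zinc finger gene, was at 8.39 and 6.42 RPKM, for a ratio of 0.765 (0.664 to 0.877) from 486 and 358 reads. Usp29, a deubiquitinase gene transcribed from the same promoter region in the other direction, was at 0.246 and 0.298 RPKM. The zinc finger gene Zim1 was at 0.129 and 0.178 RPKM. Both were below the floor, with intervals that included 1.

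In the Snrpn-Ube3a domain the differences were small or rested on few reads. Snrpn, which encodes a splicing protein of the Sm family, was at 45.9 and 43.2 RPKM, for a ratio of 0.942 (0.836 to 1.06). Its transcript also carries Snurf, so the 2 genes were measured together. Ube3a, a ubiquitin ligase gene imprinted in neurons, was at 17.9 and 16.2 RPKM, for a ratio of 0.904 (0.801 to 1.02). Its listed transcript with the most reads, 1145 and 1004, gave 0.909 with an interval of 0.834 to 0.990, which excludes 1. The MAGE family gene Ndn was at 4.19 and 5.28 RPKM, for a ratio of 1.26 (0.961 to 1.65). Magel2, of the same family, was listed at 0 in the control siRNA library and had 2 reads in the Set1a siRNA library. Peg12 had 11 and 9 reads. The 3 members above the floor lay on both sides of 1.

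The remaining members are the only ones of their domain in the set. Sfmbt2, a Polycomb gene active in the placenta, was at 5.06 and 3.91 RPKM, for a ratio of 0.772 (0.641 to 0.935) from 265 and 198 reads. Its 3 listed transcripts gave ratios of 0.555 to 0.787. Gab1, an adaptor of growth factor receptors, was at 20.9 and 18.01 RPKM, for a ratio of 0.860 (0.767 to 0.962). Slc38a4, an amino acid transporter gene, was at 37.4 and 38.6 RPKM, for a ratio of 1.03 (0.943 to 1.13). Zdbf2, a zinc finger gene, was at 12.3 and 11.8 RPKM, for a ratio of 0.954 (0.873 to 1.04). Impact, whose protein restrains the amino acid sensor GCN2, was at 22.2 and 24.8 RPKM, for a ratio of 1.12 (0.993 to 1.26). These 3 genes lay near 1 with narrow intervals.

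Zrsr1, a splicing factor gene within Commd1, was at 3.51 and 2.88 RPKM, for a ratio of 0.819 (0.607 to 1.10). Annotated exons of the 2 genes overlap on opposite strands, so reads there cannot be told apart. Nnat, which encodes a small membrane protein of the endoplasmic reticulum, was at 1.86 and 1.93 RPKM from 14 reads in each library. The zinc finger gene Plagl1 had 5 reads in each. Xlr3b, from the X chromosome, was at 3.90 and 2.50 RPKM, the lowest log2 fold of the members above the floor, -0.48. Its ratio was 0.642, and its interval of 0.378 to 1.07 included 1. Xlr3b is 99.1% identical to Xlr3c and 97.8% to Xlr3a, so its individual value is uncertain. Xlr3c was at 3.98 and 2.85 RPKM and Xlr3a at 3.01 and 2.65 RPKM, both lower in the Set1a siRNA library as well.

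Other imprinted genes, from a list of 48 that are not members, lay on both sides of 1 as well. Of the 45 found, 22 were above the floor, 9 of them higher and 13 lower, with a median log2 fold of -0.09. None was 1.5-fold different on the log2(RPKM + 1) scale, the nearest being Smoc1 at -0.58. No interval lay above 1, and 5 of 22 lay below it, against 12.2% and 11.3% of all genes. The 4 with the highest control values were Commd1, Nap1l4, Jade1 and Cobl. Commd1, the host gene of Zrsr1, was at 59.1 and 52.9 RPKM, for a ratio of 0.895 (0.835 to 0.958). Nap1l4, a histone chaperone gene at the edge of the Kcnq1 domain, had a ratio of 1.07 (0.968 to 1.18), Jade1 of 1.01 (0.946 to 1.09) and Cobl of 0.993 (0.925 to 1.07). The 4 other genes with intervals below 1, named after their values were seen, were Tssc4, given with the Kcnq1 domain, Klhdc10 near Mest with 0.855 (0.748 to 0.974), Ago2 with 0.876 (0.824 to 0.931) and Smoc1 with 0.544 (0.343 to 0.847).

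Most of the listed factors that set, keep or remove imprints were well expressed. Of 30 on the list 29 were above the floor, 11 of them higher and 18 lower, with a median log2 fold of -0.0081. Nlrp2 was below the floor, with 1 and 0 reads, and Dppa3 was low at 2.57 and 2.475 RPKM. Trim28, the corepressor that ZFP57 recruits, was at 386 and 446 RPKM, for a ratio of 1.16 (1.12 to 1.19). Dnmt3l, a cofactor of the de novo DNA methyltransferases, was at 168 and 184 RPKM, for a ratio of 1.09 (1.03 to 1.17). Zfp57 was at 111 and 124 RPKM, for a ratio of 1.12 (1.04 to 1.21), and the Polycomb gene Eed at 108 and 96.4 RPKM, for a ratio of 0.889 (0.825 to 0.959). Khdc3, which encodes a maternal-effect protein of the egg and early embryo, was the gene of the list past 1.5-fold, at 21.9 and 13.6 RPKM, for a ratio of 0.619 (0.503 to 0.766). In all, 7 intervals of the 29 lay above 1 and 4 below, against 12.2% and 11.3% of all genes, but these factors had a median of 858 control reads against 169, and deeper genes have narrower intervals. Dnmt1, the maintenance DNA methyltransferase gene, named after its values were seen, was at 61.5 and 55.6 RPKM, for a ratio of 0.904 (0.849 to 0.962). Uhrf1, Dnmt3a and Dnmt3b of the same list, also named afterwards, had ratios of 0.997, 1.03 and 0.916, with intervals that included 1.

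As for markers of the cell line and of other cell states, all 10 pluripotency markers were above the floor, summing to 2200 and 2161 RPKM. Of their intervals 8 included 1, none lay above it and 2 lay below. These were Sox2 with a ratio of 0.875 (0.835 to 0.917) and Tfcp2l1 with 0.871 (0.837 to 0.907). Of 10 trophoblast markers 4 were above the floor and Cdx2, Elf5, Tpbpa and Prl3d1 were listed at 0 in both libraries. The sum over the list was 17.8 and 16.9 RPKM, most of it Tfap2c at 11.9 and 9.72 RPKM, while Eomes was at 2.55 and 3.77 RPKM with a ratio of 1.48 (1.06 to 2.10). None of 11 primitive endoderm markers reached the floor. Of 8 neural markers 5 reached it, with Tubb3 the highest at 27.2 and 30.2 RPKM. Of 7 fibroblast markers Thy1 reached it, at 2.42 and 3.86 RPKM. The 2-cell-like markers, Zscan4 genes above all, had the sums given beside Mest and Peg10. Of the 9 listed, 7 were above the floor, and Tcstv1 and Tcstv3 were listed at 0 in both. The Zscan4 genes are near-identical copies, so a read may have been counted at several of them and their sum is uncertain. Ascl2 and Dcn stand both on a marker list and on the list of other imprinted genes.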

How the data were processed

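RNA-seq of CGR8 cells gave 2 deposited tables, 1 per library, each with 28430 RefSeq transcripts and their values. Neither table states a unit. RPKM was inferred from the deposited values: after the depth ratio of 0.965 was read from equal low values, 7239 of 7587 transcripts with fewer than 60 reads (95.4%) gave whole read pairs within a relative tolerance of 1.5e-05. Transcript length cancels from the ratio tested and only set the range searched. This share therefore bears on scaling by depth and little on scaling by length. The build mm9 and the tools SAMtools 0.1.16, TopHat2 2.0.12, TopHat and CASAVA are named per the submitters' processing notes, with no role or order. How reads were counted, and whether by strand, is not given in the sources used here. Library depth was taken from 1310 transcripts that implied the same number, of 5716 with whole pairs and up to 30 reads. Read numbers are approximate where annotated lengths differ from the authors'.

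Symbols came from a GRCm38.p6 RefSeq table and GENCODE M21, for 98.3% of transcripts, and lengths from GENCODE M21. The transcript with the highest summed RPKM stood for a gene. Folds were log2((Set1a siRNA + 1)/(control siRNA + 1)), which understates changes of low genes. A gene listed at 0 was given a limit of 3 reads. The members and lists were chosen with earlier results of these data known. Genes were named by rule: all 38 members, Setd1a, and in the lists of imprint factors and other imprinted genes those past 1.5-fold and the 4 with the highest control RPKM. Near-identical transcripts were sought with BLAST 2.17.0 at 90% identity over at least 50% of the shorter one. Python 3.11.15 with scipy 1.17.1 was used, and the functions were tested on simulated counts.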

Additional observations from a re-analysis of the deposited data

How the results depend on the processing

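Settings varied were the pseudocount, the floor, the scaling, the choice of transcript, transcript length and a trend in GC content and length. Of the 27 members above the floor, 24 kept their sign in every setting run for them, and Nnat, Ppp1r9a and Zdbf2, all near 0, did not. With a pseudocount of 0.1, 1 member (Xlr3b) was at least 1.5-fold lower, in place of 0, and with a pseudocount of 5, 1 member was at least 2-fold higher, in place of 2. Leaving out members whose exons overlap another gene, a setting added after seeing the data, left 16 members, with 1 at least 2-fold higher, 1 at least 1.5-fold higher, 2 intervals above 1 and 3 below. At least 1.5-fold higher were 3 members with values summed over transcripts. Intervals below 1 numbered 7 with median-of-ratios scaling, 7 with the most-read transcript (Ube3a added) and 5 with a floor of 5 RPKM, in place of 6. The median of the members was -0.00011 with the GC and length trend removed and 0.04 without a floor, so its sign is not firm. No paired analysis was possible because neither siRNA had a replicate. Depth limits the members below the floor most, at 15 reads or fewer in a library.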
